A study of Mus musculus with 24 samples.

Results

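Fibroblasts of dystrophin-mutant mdx mice were compared with fibroblasts of C57 mice after both had received medium conditioned by aldosterone-treated myotubes. The comparison used 6 of the 24 bulk RNA-seq libraries of the study, 3 from mdx and 3 from C57 fibroblasts, chosen by their labels, and it covered the 16671 genes of 56748 in the count table that had enough reads to be tested. The mdx group was C57BL/10-Dmdmdx and the C57 group was C57BL/10, and all cells were primary cultures from hindlimb muscle of newborn mice less than 5 days old. Myotubes of each line received 1 µM aldosterone, a mineralocorticoid hormone, for 48 h in medium with charcoal-stripped horse serum. Fresh medium then stayed on the myotubes for 15 h before it was moved to fibroblasts of the same line for 24 h. The genotype of a fibroblast culture and the genotype of the myotubes that conditioned its medium therefore cannot be told apart. Vehicle medium came from DMSO-treated myotubes in the same way, and its 6 fibroblast libraries, together with the 6 libraries of the aldosterone-treated myotubes, serve here for comparison. The labels number the libraries as biological replicates 1 to 3 and do not say how many animals stand behind each, so p-values measure the spread between these libraries.

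Muscle fibroblasts lay down the collagens, laminins and other matrix around muscle fibres, and in dystrophic muscle they drive fibrosis. They can turn into contractile myofibroblasts that make smooth-muscle actin, a shift promoted by TGF-beta and opposed by some BMP signals. Dystrophin, the product of Dmd on the X chromosome, links actin to the matrix receptor dystroglycan in muscle fibres, and the mdx mutation is a premature stop codon. Aldosterone acts through the mineralocorticoid receptor (Nr3c2) and can also bind the glucocorticoid receptor (Nr3c1).

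Among the genes with the largest differences were Irx3 and Esm1, and the 250 bases before their start sites are shown because their levels differed many-fold between genotypes in every library. Of the 4 genes Tlr4, Irx5, Irx3 and Esm1, RefSeq promoter windows of build GRCm38.p6 were at hand for 2. Capitals mark the E-box CANNTG, a motif bound by basic helix-loop-helix factors. The Irx3 window is chr8:91801655-91801904 on the minus strand, and the Esm1 window is chr13:113209409-113209658 on the plus strand.
Irx3: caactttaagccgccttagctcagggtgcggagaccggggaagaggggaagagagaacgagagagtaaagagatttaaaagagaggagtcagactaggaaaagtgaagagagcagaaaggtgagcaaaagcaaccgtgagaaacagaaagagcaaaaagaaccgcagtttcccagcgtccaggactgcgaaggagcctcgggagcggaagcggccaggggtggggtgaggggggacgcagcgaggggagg
Esm1: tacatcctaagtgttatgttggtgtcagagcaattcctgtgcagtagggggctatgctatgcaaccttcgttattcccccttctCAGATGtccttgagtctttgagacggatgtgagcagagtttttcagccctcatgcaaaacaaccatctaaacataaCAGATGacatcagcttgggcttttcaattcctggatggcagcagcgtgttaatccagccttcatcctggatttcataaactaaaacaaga
The Esm1 window held 2 E-boxes, whose first bases lie 166 and 90 bases before the start, and the Irx3 window held 0. E-boxes were present in 66.2% of 32851 promoter windows of this length. Neither window held, on either strand, the GC box GGGCGG (in 32.7% of windows), CCAAT (33.8%), TATAAA (12.4%), TGACG (17.8%), the steroid receptor motif AGAACA (16.1%) or the AP-1 site TGANTCA (6.75%). The G and C content was 56% in the Irx3 window and 44% in the Esm1 window, against a median of 52.4% over all windows.

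The 6 libraries held 19297212 to 40756528 counts each. Levels are given as CPM, counts scaled to library size with TMM factors, in the order of replicates 1, 2 and 3. Fibroblast genes were high in all 6 libraries, with Pdgfra at 381, 436 and 375 CPM in mdx and 384, 407 and 345 CPM in C57 cultures. Of the marker lists of other cells, some defining members stayed at 20 counts or fewer per library (Ptprc, Adgre1, Pecam1, Cdh5, Sox10, Krt5 and Epcam), while the lists as a whole were present at low level. Their summed levels ranged from 18.3 to 22.2 CPM in mdx and 21.2 to 34.8 CPM in C57 libraries for leukocytes, from 84.0 to 100.9 CPM in mdx and 76.5 to 88.3 CPM in C57 libraries for endothelium, and from 39.9 to 50.2 CPM in mdx and 43.6 to 46.5 CPM in C57 libraries for epithelium. Schwann and neural markers summed to 78.0 to 91.2 CPM in mdx, below the 98.5 to 108 CPM in C57 libraries, most of it Ncam1. None of the 8, 9, 5 and 10 tested genes of these lists was called, and the part of such cells in the results was not tested. Some muscle transcripts were present in traces and unevenly: mdx replicate 2 had 52.4 CPM of Acta1 and 112 counts of Myog, whereas the other 5 libraries had 9.71 to 23.7 CPM and 0 to 19 counts. The sum over 23 sarcomere genes ranged from 41.5 to 223 CPM in mdx and from 24.9 to 97.1 CPM in C57 libraries, and 0 of the 22 tested passed the test. Of the 22, 21 had a positive log2 change and the median was 0.65, but -0.71 without mdx replicate 2. Muscle precursor markers summed to a more even 176 to 206 CPM in mdx and 178.5 to 202.7 CPM in C57 libraries. Of their 7 tested genes 0 were called, with a median of 0.76, but -0.805 without mdx replicate 2. The same mdx replicate 2 also stood apart in its overall profile, with correlations of log2 CPM of 0.991 with either other mdx library, which correlated at 0.997 with each other.

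The libraries also differed in sex-linked transcripts, which the labels do not mention. In mdx replicate 2 Xist was at 0.193 CPM and 4 Y-linked genes summed to 230 CPM, whereas mdx replicates 1 and 3 had 1240 and 1341 CPM of Xist and no Y-linked counts. C57 replicate 1 had 1165 CPM of Xist together with 35.9 CPM of Y-linked transcripts, and C57 replicates 2 and 3 had 1478 and 1407 CPM of Xist with 0.208 CPM or less. In vehicle medium C57 culture 1 had 0.226 CPM of Xist and 234 CPM of Y-linked transcripts, so the cultures numbered 1 in the 2 media did not match in this respect. C57 vehicle replicate 3 held both kinds as well, with 932 CPM of Xist and 82.6 CPM of Y-linked transcripts. Whether such libraries were mixed, exchanged or pooled from mice of both sexes cannot be told apart here, so values of C57 replicate 1 carry that doubt. Gene counts are therefore set beside those without mdx replicate 2 and those without every library that held Y-linked reads, where they differ; the second setting was chosen after the data were seen.

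Dmd, the mutated gene, was at 9.60, 7.67 and 9.68 CPM in mdx fibroblasts, against 31.7, 39.8 and 39.0 CPM in C57 fibroblasts. All 3 mdx values lay below all C57 values. The log2 change was -2.04 ± 0.16 (SE), and it passed the quasi-likelihood test of edgeR with Benjamini-Hochberg adjustment over every gene tested (adjusted p = 2.73e-05). Of 16 tested genes of the dystrophin complex 2 passed, beside 1.23% of all genes. The other was Lama2, the laminin chain that joins dystroglycan to the muscle basement membrane. Lama2 was at 23.7, 24.1 and 21.6 CPM in mdx, against 41.7, 49.5 and 41.1 CPM in C57 fibroblasts (log2 change -0.93 ± 0.13, adjusted p = 0.00407). Utrophin (Utrn), the dystrophin homologue, averaged 239 ± 11 CPM in mdx and 257 ± 7.1 CPM in C57 fibroblasts (SD, n = 3 each), with adjusted p = 0.462.

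At an adjusted p below 0.05, called below, 205 of 16671 genes (1.23%) differed between mdx and C57 fibroblasts, 99 higher in mdx (0.594%) and 106 lower (0.636%). Most changes were modest: 70 of the 205 exceeded 1 on the log2 scale, 30 higher and 40 lower. The median log2 change over all tested genes was 0.00722. Protein-coding genes made up 182 of the 205. Groups did not overlap for any of the 205, whereas 19.6% of all tested genes also had no overlap between the groups' libraries. Without mdx replicate 2 the count was 139, of which 117 were among the 205, and without the libraries with Y-linked reads, which left 2 libraries per group, it was 226, of which 105 were among the 205. Leaving out C57 replicate 1, 2 or 3 brought it to 98, 95 or 89, and leaving out mdx replicate 3 to 130.

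**Figure D1:**
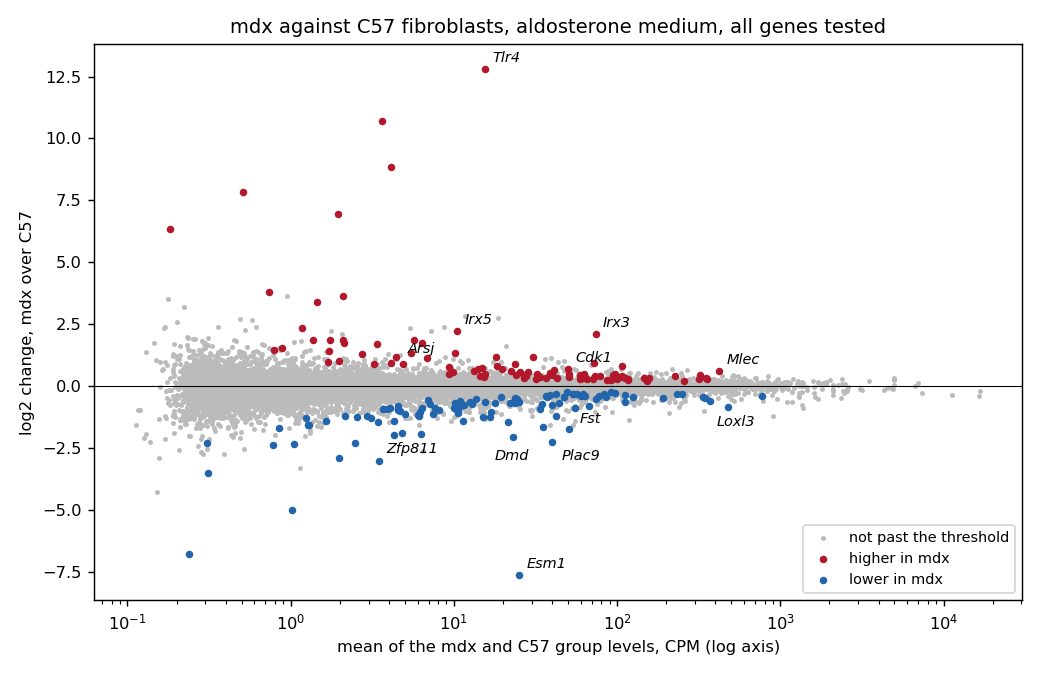
Log2 change of mdx over C57 fibroblasts in aldosterone medium against the mean of the group levels (CPM, log axis) for all genes tested. Red points are the 99 genes called higher in mdx and blue points the 106 called lower; Tlr4 and Esm1 lie farthest out among the well-expressed genes.

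A few genes were nearly all or none between the lines. Tlr4, the receptor for bacterial lipopolysaccharide, was at 32.5, 29.5 and 31.3 CPM in mdx fibroblasts and at 0 counts in all 3 C57 libraries. Against a floor of 3 counts per library it was at least 248-fold higher in mdx (adjusted p = 5.68e-10). An unnamed long non-coding RNA inside the span of Tlr4 on chromosome 4 (ENSMUSG00000121059) followed it, with 6.4, 8.01 and 7.29 CPM in mdx and 0 in C57 fibroblasts, at least 57.8-fold higher. Tlr4 was at 0 counts in C57 fibroblasts in vehicle medium and in C57 myotubes too, against means of 30.3 and 21.4 CPM in the matching mdx cultures. A deletion of Tlr4 is known in the C57BL/10ScN substrain, and the labels name no substrain. Of 24 tested Toll-like receptor pathway genes, Tlr4 was the only one called, beside 1.23% of all genes. The median log2 change of the list was 0.09.

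Esm1, the secreted proteoglycan endocan, best known from endothelial cells, showed the opposite pattern. It was at 0.267, 0.241 and 0.256 CPM in mdx, against 53.9, 34.9 and 60.6 CPM in C57 fibroblasts (log2 change -7.61 ± 0.35, adjusted p = 2.22e-06). On the length-scaled FPKM of the deposited table it averaged 0.112 ± 0.0059 in mdx and 21.8 ± 5.9 in C57 fibroblasts. Of the endothelial markers Pecam1 had 0 to 4 counts and Cdh5 0 to 3 counts in the 6 libraries, whereas Eng was at 60.7 to 78.3 CPM in mdx and 59.5 to 68.9 CPM in C57 and Erg at 7.63 to 10.8 CPM in mdx and 7.22 to 7.70 CPM in C57 libraries, and neither was called. Of 19 tested genes within 1300 kb of Esm1 on chromosome 13, 3 were called, beside 1.23% of all genes. All 3 were lower in mdx: Esm1 itself, Slc38a9 (a lysosomal amino acid transporter, log2 change -0.64) and Fst (-1.71). The window was set round a called gene after values were seen.

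**Figure D2:**
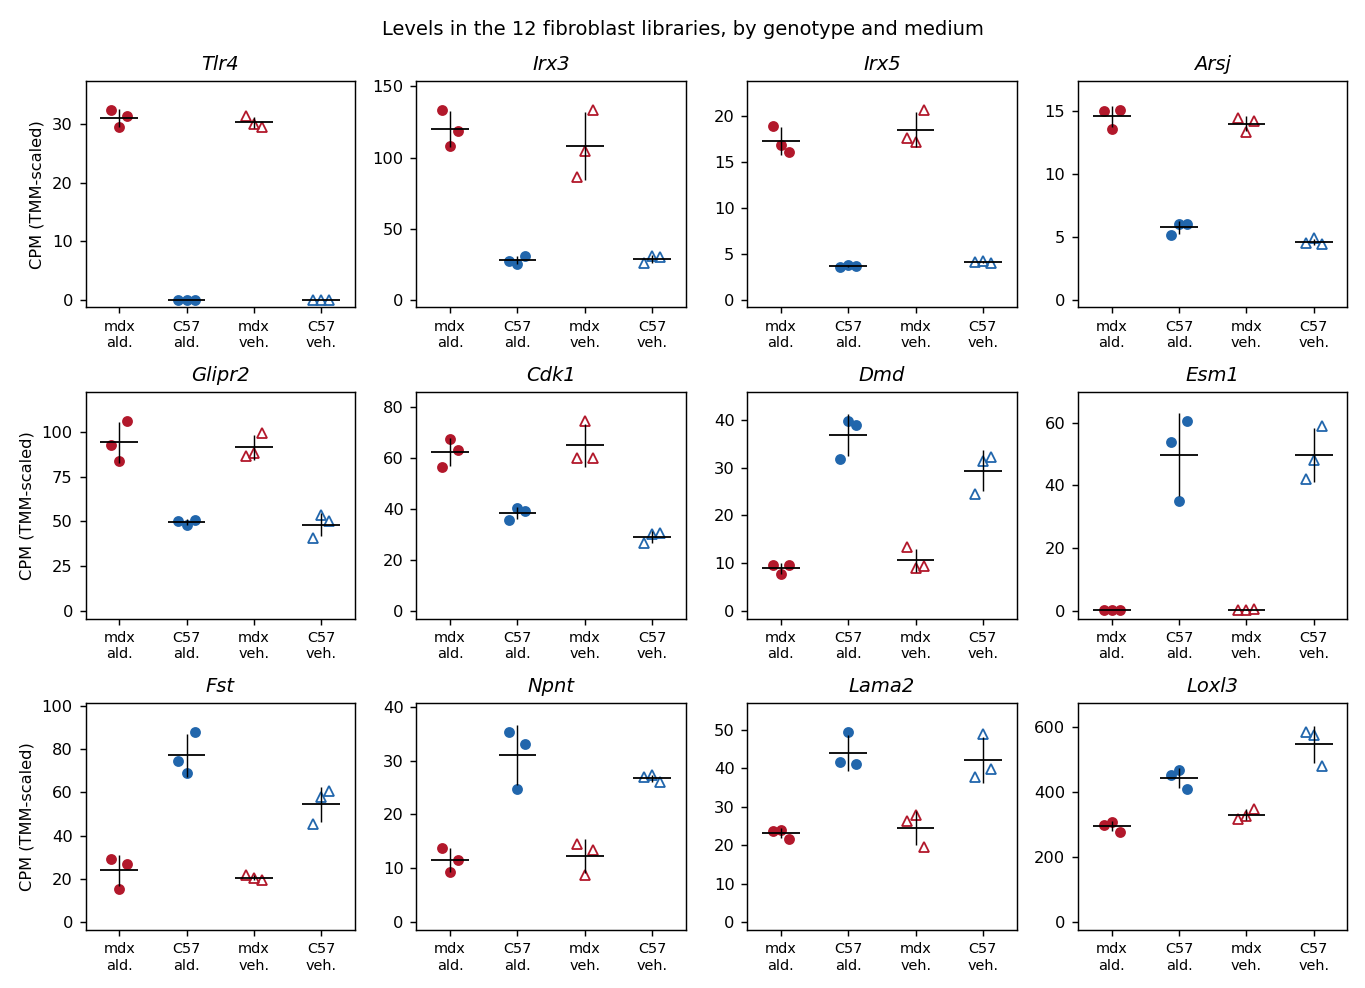
Level in CPM of 12 genes in each of the 12 fibroblast libraries, with mdx (red) left of C57 (blue) for aldosterone medium (filled circles) and vehicle medium (open triangles); black lines give the mean and the SD of 3 libraries. The genotypes do not overlap in either medium for any of the 12 genes, and Tlr4 lies at 0 in C57 and Esm1 near 0 in mdx cultures.

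Several non-coding or poorly described genes also differed in this way. Gm49980 was at 7.21 to 9.14 CPM in mdx and had 0, 0 and 0.0370 CPM in C57 fibroblasts, and Gm43305 was at 3.38 to 4.78 CPM in mdx and at most 0.0521 CPM in C57 fibroblasts. Gm45640 had the reverse pattern, with 0.0241 to 0.133 CPM in mdx and 1.92 to 2.06 CPM in C57 fibroblasts. Zfp811, a zinc finger gene, was at 0.755, 1.06 and 0.384 CPM in mdx and 7.25, 6.09 and 5.22 CPM in C57 fibroblasts (log2 change -3.0 ± 0.32, adjusted p = 0.000167). These patterns held in vehicle medium, where all 4 were called in the same direction.

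The Iroquois genes Irx3 and Irx5, neighbouring homeobox transcription factors that pattern the limb and heart, rose together in mdx fibroblasts. Irx3 was at 133, 108 and 119 CPM in mdx, against 27.5, 25.3 and 30.6 CPM in C57 fibroblasts (log2 change 2.11 ± 0.16, adjusted p = 7.84e-05). Irx5 was at 19, 16.8 and 16.1 CPM in mdx, against 3.61, 3.80 and 3.70 CPM in C57 fibroblasts (2.22 ± 0.11, adjusted p = 3.62e-08). The mdx values were several times the C57 values in every library, with narrow spread. Per length, Irx3 averaged 40.1 ± 4.3 FPKM in mdx and 9.25 ± 0.91 FPKM in C57 fibroblasts, and Irx5 5.09 ± 0.47 FPKM in mdx and 1.09 ± 0.028 FPKM in C57 fibroblasts, so Irx3 was the higher of the pair in both lines. Without the libraries with Y-linked reads the log2 change of Irx3 was 2.17 and its adjusted p 0.0504.

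On the mm39 build of the files Irx3 spans chr8:92525153-92528695 on the minus strand and Irx5 chr8:93084253-93102914 on the plus strand. The long non-coding RNA Crnde, which ends 6 bases before Irx5 starts and runs the other way, was at 7.29, 7.67 and 8.31 CPM in mdx and 2.38, 3.33 and 3.55 CPM in C57 fibroblasts (log2 change 1.33 ± 0.16, adjusted p = 0.000262). Irx3os overlaps Irx3 by 1656 bases and was at 2.43 to 3.20 CPM in mdx and 0.686 to 0.781 CPM in C57 fibroblasts (1.87, adjusted p = 0.000825). The libraries did not keep strand, so reads of Irx3 and Irx3os, or of Irx5 and Crnde where they meet, cannot be told apart. Of 14 tested genes within 1000 kb of Irx3, 6 were called, Irx3 itself included, beside 1.23% of all genes. They were these 4, higher in mdx, and Gm45640 and Rbl2, lower in mdx. The window was set round a called gene after values were seen. Fto, whose introns are known to hold Irx3 enhancers, had a log2 change of -0.16 (adjusted p = 0.137).

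**Figure D3:**
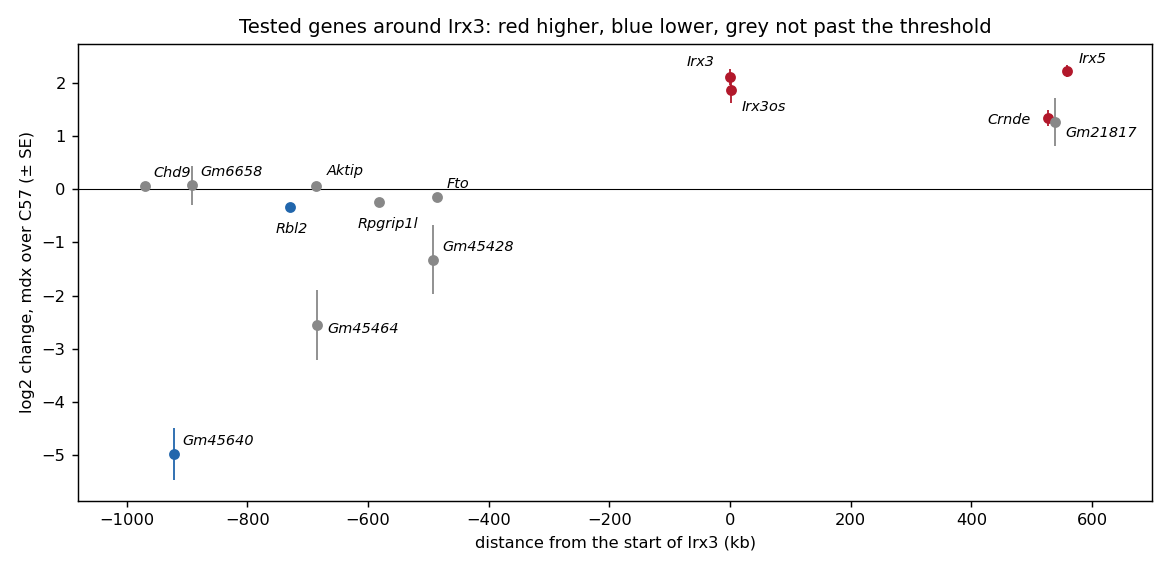
Log2 change (± SE) of mdx over C57 fibroblasts for the 14 tested genes within 1000 kb of Irx3, by distance of their start from the start of Irx3 in kb. Irx3, Irx3os, Crnde and Irx5 (red) lie between 1.33 and 2.22, whereas Rbl2 and Gm45640 (blue) lie below 0 and the 8 grey genes were not called.

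Among 34 tested limb patterning factors, Irx3, Irx5 and Six2 were called, beside 1.23% of all genes. Six2 is a homeobox factor of developing connective tissue and kidney and was at 5.60, 7.43 and 5.97 CPM in mdx and 3.72, 2.66 and 3.77 CPM in C57 fibroblasts (log2 change 0.90 ± 0.18, adjusted p = 0.0255). None of the 34 was called lower, 17 had a positive log2 change, and the list median was -0.00336. Sall1, a zinc finger factor of the list, was at 10.7 to 12.9 CPM in mdx and 1.61 to 3.46 CPM in C57 fibroblasts and missed the threshold (2.23, adjusted p = 0.0648), which it passed when libraries with Y-linked reads were left out (2.47, adjusted p = 4.18e-05). Of 29 tested Hox genes, Hoxc5 alone was called, at 2.44 to 2.86 CPM in mdx and 4.58 to 5.62 CPM in C57 fibroblasts (-0.92, adjusted p = 0.00725). Osr1, a factor of fibroblastic muscle progenitors, was at 60.0, 56.5 and 61.3 CPM in mdx, against 42.6, 42.2 and 42.3 CPM in C57 fibroblasts (0.48 ± 0.09, adjusted p = 0.0222), and it was the only one of 19 tested fibroblast identity genes to pass. The call of Osr1 ended on leaving out any 1 library but mdx replicate 2 (adjusted p up to 0.0969, without C57 replicate 2), that of Six2 on leaving out any but mdx replicate 1 (up to 0.125, without C57 replicate 2), and that of Hoxc5 without the libraries with Y-linked reads (0.0569), where Hoxa13 was called higher (1.04, adjusted p = 0.024) and, of fibroblast identity genes, Ly6a higher (0.63) and Thy1 lower (-0.38) beside Osr1.

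Matrix genes differed in single members. Of 11 fibrillar collagens 1 was called, beside 1.23% of all genes. It was Col24a1, a minor collagen at 1.54 to 2.00 CPM in mdx and 3.25 to 5.57 CPM in C57 fibroblasts (log2 change -1.19, adjusted p = 0.0336). The main interstitial collagens were not called: Col1a1 was at 12017, 7270 and 10319 CPM in mdx and 11654, 14703 and 11925 CPM in C57 fibroblasts (-0.37, adjusted p = 0.515), and Col3a1 had a log2 change of -0.08 (adjusted p = 0.813). Their groups overlapped. Of the 11, 10 had a negative log2 change and the median was -0.36, or -0.19 without mdx replicate 2, whose summed level of 20630 CPM was the lowest of the 6; without that library 0 of the 11 were called. The call of Col24a1 ended also without C57 replicate 2 or 3 or mdx replicate 1 or 3 (adjusted p of 0.157, 0.0649, 0.0576 and 0.0851). None of 29 other collagens, 38 glycoproteins and elastic fibre genes, 12 small leucine-rich proteoglycans and 5 CCN family genes was called, with medians of -0.25, -0.16, -0.34 and -0.27. With the Y-linked libraries left out more of these genes were called, in both directions: Col2a1, Col8a1, Col8a2, Col12a1, Tnc, Thbs2, Cilp2 and Ccn4 lower, and Tnxb, Efemp1 and Matn2 higher. Without mdx replicate 2 there was 1 call among the other collagens, lower, and 0 among the other 3 lists. Fibronectin (Fn1) averaged 15565 ± 1211 CPM in mdx and 17982 ± 1323 CPM in C57 fibroblasts (adjusted p = 0.327), and Ccn2, a TGF-beta target, had a log2 change of -0.50 (adjusted p = 0.359). Postn, the matricellular protein periostin, was at 215, 133 and 166 CPM in mdx and 250, 377 and 296 CPM in C57 fibroblasts; the groups did not overlap, yet the adjusted p was 0.292.

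Enzymes that modify collagen were called lower in mdx fibroblasts in 3 of 20 tested cases, beside 0.636% of all genes. None was called higher, and the list median was -0.06. Loxl3, a lysyl oxidase that cross-links collagen, was at 298, 309 and 278 CPM in mdx, against 452, 467 and 408 CPM in C57 fibroblasts (log2 change -0.58 ± 0.08, adjusted p = 0.001). Its relative Loxl2 was at 58.5, 41.9 and 48.6 CPM in mdx and 78.5, 84.8 and 92.2 CPM in C57 fibroblasts (-0.78 ± 0.14, adjusted p = 0.0222). The lysyl hydroxylase Plod2 was at 112, 92.9 and 111 CPM in mdx and 142, 153 and 137 CPM in C57 fibroblasts (-0.45 ± 0.09, adjusted p = 0.0355). For all 3 the ranges were apart, while Lox, the most abundant oxidase, had overlapping groups and a log2 change of -0.09. The call of Plod2 ended on leaving out any 1 of the 6 libraries (adjusted p of 0.0526 to 0.157), and that of Loxl2 without C57 replicate 2 or 3 or mdx replicate 2 or 3 (0.0513 to 0.09). Without mdx replicate 2 a single gene of the 20 was called.

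Among 31 matrix proteases and inhibitors the gelatinase Mmp2 alone was called, beside 1.23% of all genes. Mmp2 was at 690, 715 and 618 CPM in mdx and 825, 934 and 858 CPM in C57 fibroblasts (log2 change -0.37 ± 0.09, adjusted p = 0.0475). Without the libraries with Y-linked reads Mmp2 was not called (-0.46), and Mmp9 was called instead, lower (-0.94). Leaving out any 1 library but mdx replicate 2 ended the call of Mmp2 (adjusted p of 0.0825 to 0.203), and leaving out C57 replicate 1 or 3 ended that of Vit, described next (0.0879 and 0.0974). Nephronectin (Npnt), a basement membrane ligand of integrins, was at 13.7, 9.38 and 11.6 CPM in mdx and 35.4, 24.7 and 33.1 CPM in C57 fibroblasts (-1.44 ± 0.20, adjusted p = 0.00453). Vitrin (Vit), a matrix protein with von Willebrand domains, had a log2 change of -1.41 (adjusted p = 0.0222), and Crispld2, a secreted protein, was at 2.49, 1.01 and 1.88 CPM in mdx and 6.42, 5.88 and 8.18 CPM in C57 fibroblasts (-1.98 ± 0.27, adjusted p = 0.00157). Mmp2, Npnt, Vit and Crispld2 were each lower in mdx in all 3 libraries. Of 31 integrins and laminins, Lama2 alone was called, beside 1.23% of all genes, and the median was -0.09. When the libraries with Y-linked reads were left out 6 of the 31 were called, beside 226 of 17005 genes. Itga2 (1.13) and Lama5 (0.49) were higher and Itga1, Itga8, Itga11 and Lama2 lower.

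**Figure D4:**
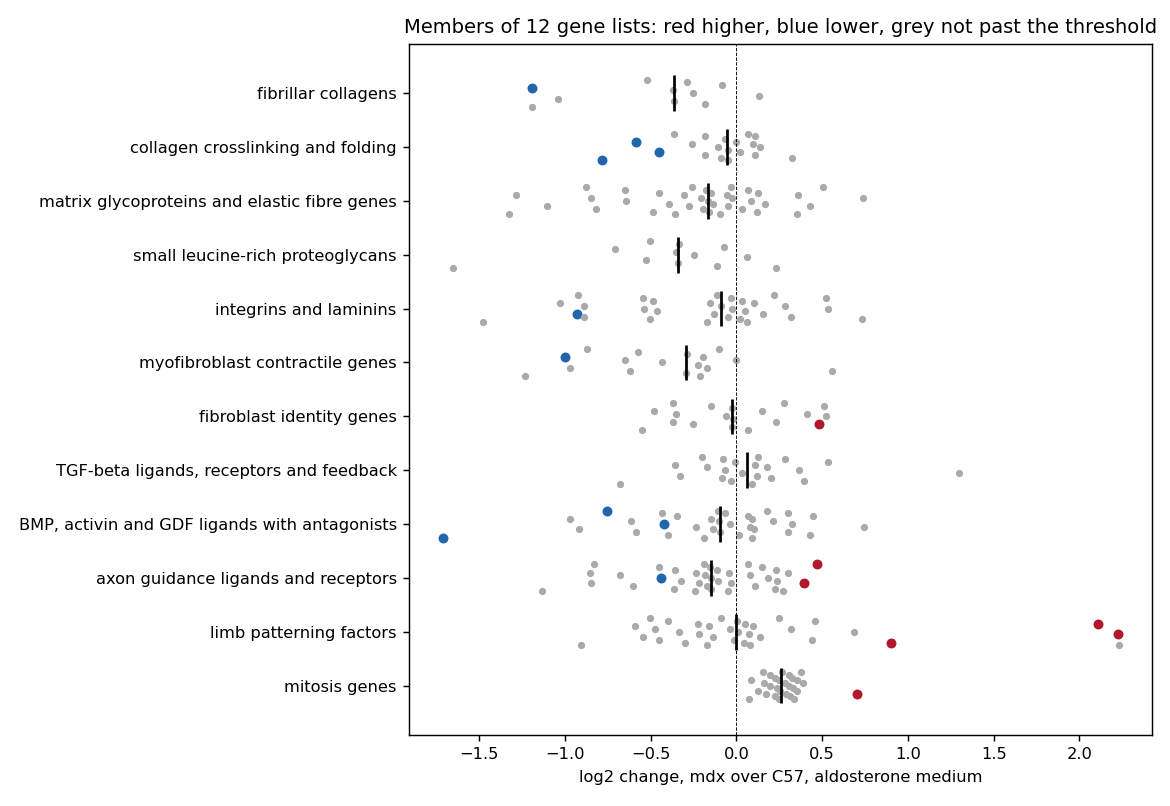
Log2 change of mdx over C57 fibroblasts in aldosterone medium for the tested members of 12 gene lists; each point is a gene, black bars are list medians, and red and blue mark genes called higher and lower. Called members are few in each list, and all 28 mitosis genes lie above 0 with 1 called.

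Of 17 tested myofibroblast contractile genes 16 had a negative log2 change and the median was -0.29, with 1 call, beside 1.23% of all genes. Myh11, the smooth muscle myosin heavy chain, was at 7.77, 6.2 and 7.29 CPM in mdx and 13.4, 14.9 and 14 CPM in C57 fibroblasts (-1.0 ± 0.15, adjusted p = 0.00344). Acta2, smooth-muscle actin and the usual myofibroblast marker, was at 1074, 823 and 1012 CPM in mdx and 1659, 1820 and 1844 CPM in C57 fibroblasts (-0.87 ± 0.21, adjusted p = 0.0934). The Acta2 groups did not overlap, and it passed in 4 of 13 alternative settings, among them the fit of the 6 libraries alone (adjusted p = 0.00214). Without the libraries with Y-linked reads 5 of the 17 were called, all lower, beside 226 of 17005 genes, 135 of them lower. They were Acta2, Cnn1, Actg2, Myl9 and Myh11, with log2 changes of -0.81, -0.91, -1.19, -0.56 and -0.94. In vehicle medium 0 of the 17 were called, with a list median of -0.22, and none was called for the difference between the media.

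Of 11 tested markers of pericytes and smooth muscle, Myh11 and Mcam (CD146) were called, both lower in mdx, beside 1.23% of all genes. The list summed to 419 to 522 CPM in mdx and 465 to 535 CPM in C57 fibroblasts. The call of Mcam ended without any 1 of the C57 libraries or mdx replicate 3 (adjusted p of 0.0502 to 0.0809). The part of such cells in the contractile values was not tested, and fewer cells of a type and less RNA per cell cannot be told apart in bulk libraries. Other actin-linked genes, named after their values were seen, were Lpp, a LIM protein of focal adhesions, and Pdlim1, a LIM protein of stress fibres. Lpp was at 342, 342 and 357 CPM in mdx and 611, 613 and 614 CPM in C57 fibroblasts (log2 change -0.82 ± 0.07, adjusted p = 1.36e-05), and Pdlim1 had a log2 change of -0.42 (adjusted p = 0.00731).

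Of 33 tested BMP and activin components 3 were called, beside 1.23% of all genes. All 3 were lower in mdx, and the list median was -0.10. Follistatin (Fst), a secreted trap for activins and myostatin, was at 29.1, 15.5 and 27.0 CPM in mdx, against 74.5, 68.7 and 87.9 CPM in C57 fibroblasts (log2 change -1.71 ± 0.22, adjusted p = 0.00603). Inhba, which encodes the subunit of activin A, was at 299, 281 and 282 CPM in mdx and 382, 369 and 403 CPM in C57 fibroblasts (-0.42 ± 0.08, adjusted p = 0.0137). So a ligand and its trap were both lower in mdx, the trap by more. The receptor Bmpr1b was at 8.35, 9.67 and 7.63 CPM in mdx and 14.5, 14.3 and 14.7 CPM in C57 fibroblasts (-0.75 ± 0.11, adjusted p = 0.00238). In the fit of the 6 libraries alone Fst had a log2 change of -1.72 and an adjusted p of 0.0695. Inhba was not called without C57 replicate 1 or 3 or mdx replicate 3 (0.0571, 0.0833 and 0.0535).

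None of 22 tested TGF-beta ligands, receptors and feedback genes was called (median 0.06), against 1 without mdx replicate 2, higher, and 2 without the libraries with Y-linked reads (Tgfbr2 0.44 and Tgfb3 -0.55). Tgfb1 was at 81.5, 108 and 68.6 CPM in mdx and 83.8, 78.4 and 77.2 CPM in C57 fibroblasts, with overlapping groups. Acvrl1, the receptor ALK1 for some BMPs and TGF-beta, chosen after its values were seen, was higher in mdx, at 41.7, 34.1 and 38.4 CPM, against 25.1, 27.3 and 28 CPM in C57 fibroblasts (log2 change 0.50, adjusted p = 0.039). In the IGF axis, 1 of 19 tested genes was called higher and 1 lower, beside 1.23% of all genes. Of the 19, 6 had a positive log2 change, and the median was -0.15. Without the libraries with Y-linked reads Igf1 was called lower (-0.47) and Igf2bp2 was not called (0.22). Igf2bp2, which binds IGF2 mRNA, was at 121 to 130 CPM in mdx and 106 to 107 CPM in C57 fibroblasts (0.24, adjusted p = 0.0408), and Igfbp7, a secreted binding protein, at 272 to 307 CPM in mdx and 384 to 436 CPM in C57 fibroblasts (-0.49, adjusted p = 0.00954). Angptl4, a secreted inhibitor of lipoprotein lipase and a known corticosteroid target, was at 106, 124 and 97.9 CPM in mdx and 84.2, 73.6 and 78.8 CPM in C57 fibroblasts (0.47, adjusted p = 0.0425). No Wnt (38 tested), FGF (20) or Notch (11) gene was called, with medians of -0.10, -0.12 and -0.15. Leaving out the libraries with Y-linked reads gave calls for Sfrp2 (0.99), Lgr5 (1.31), Fgfr2 (-0.38) and Jag1 (-0.73), and leaving out mdx replicate 2 gave 1 for a Wnt gene, higher. Angptl4 and Igf2bp2 lost their calls on leaving out any 1 library but mdx replicate 3 (adjusted p of 0.0786 to 0.179 and 0.0939 to 0.148), and Igfbp7 without C57 replicate 3 (0.0649).

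Of 19 tested semaphorins, a family counted after its values were seen, 3 were called, beside 1.23% of all genes. Of these, 1 was lower and 2 were higher in mdx fibroblasts. Sema3a, which repels axons, was at 76.5, 72.0 and 70.3 CPM in mdx and 103, 95.9 and 98.2 CPM in C57 fibroblasts (log2 change -0.44 ± 0.06, adjusted p = 0.0022). Sema3f was at 128, 119 and 117 CPM in mdx and 91.6, 89.9 and 95.7 CPM in C57 fibroblasts (0.40 ± 0.08, adjusted p = 0.0255), and Sema3b at 72.6, 62.8 and 72.6 CPM in mdx and 50.5, 45.1 and 53.9 CPM in C57 fibroblasts (0.47 ± 0.10, adjusted p = 0.0282). They were the 3 called of 37 axon guidance genes tested, against 2 without mdx replicate 2 and 7 without the libraries with Y-linked reads, the added 4 being Slit2, Robo2, Epha3 and Epha4, all lower. A pair of neural adhesion molecules was also called, in opposite directions: L1cam was at 8.89, 11.3 and 9.51 CPM in mdx and 3.79, 2.13 and 2.81 CPM in C57 fibroblasts (1.75 ± 0.20, adjusted p = 0.0002), whereas Nrcam, named after its values were seen, was at 22.8 to 27.5 CPM in mdx and 49.0 to 70.1 CPM in C57 fibroblasts (-1.22, adjusted p = 0.0234). Rbfox1, a splicing regulator of neurons and muscle, was at 1.60, 2.34 and 2.13 CPM in mdx and 8.62, 6.30 and 7.99 CPM in C57 fibroblasts (-1.90 ± 0.24, adjusted p = 0.000825). Rab6b, a vesicle transport GTPase, was also lower (-1.39, adjusted p = 0.00688). Without mdx replicate 2 the adjusted p of Rab6b was 0.0504. The call of Sema3f ended on leaving out any 1 of the 6 libraries (0.0502 to 0.126) and that of Sema3b on leaving out any but mdx replicate 2 (0.0502 to 0.141), whereas Sema3a was called in every setting tried.

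Several enzyme and cell-surface genes were higher in mdx fibroblasts. Arsj, an arylsulfatase, was at 15.1, 13.6 and 15.1 CPM in mdx and 5.16, 6.04 and 6.07 CPM in C57 fibroblasts (log2 change 1.34 ± 0.11, adjusted p = 5.71e-06). Glutaredoxin (Glrx), which removes glutathione from proteins, was at 42.1, 41.8 and 43.2 CPM in mdx and 19.4, 16.1 and 20.1 CPM in C57 fibroblasts (1.19 ± 0.11, adjusted p = 5.2e-05). Glipr2 was at 92.9, 83.5 and 106 CPM in mdx and 50.2, 47.8 and 50.8 CPM in C57 fibroblasts (0.92 ± 0.10, adjusted p = 0.000345). For all 3 every mdx library lay above every C57 library. Cd59a, which blocks the membrane attack complex, was at 20.3 to 28 CPM in mdx and 10.1 to 11.6 CPM in C57 fibroblasts (1.20, adjusted p = 0.000505). Phex, an endopeptidase of bone cells, and Catip were higher by 1.19 and 0.95 on the log2 scale (adjusted p = 0.0134 and 0.0459), both at under 7 CPM. Dusp27, a muscle-enriched atypical phosphatase, was at 4.70 to 5.82 CPM in mdx and 0.989 to 1.95 CPM in C57 fibroblasts (1.69, adjusted p = 0.0165). Without C57 replicate 2 or 3 Dusp27 (0.0754 and 0.0671) and Phex (0.0715 and 0.0671) were not called, nor was Catip without any 1 library but mdx replicate 1 (0.0841 to 0.189).

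Tetraspanins, membrane proteins that organise adhesion and protease complexes, were singled out after their values were seen: 6 of 16 tested were called, 3 in each direction, against 1.23% of all genes. Tspan15, a partner of the protease ADAM10, was at 9.77, 9.17 and 9.29 CPM in mdx and 3.90, 3.59 and 5.22 CPM in C57 fibroblasts (log2 change 1.14 ± 0.17, adjusted p = 0.00261), and Tspan11 (0.91) and Tspan5 (0.37) were higher as well. Tspan18, Tspan2 and Tspan7 were lower, by -1.13, -0.72 and -0.60. In vehicle medium Tspan15 was the only one of the 6 called, and the other 5 had adjusted p-values from 0.0628 to 0.851. These 5 kept their sign there, with log2 changes of 0.65 for Tspan11, 0.28 for Tspan5, -0.47 for Tspan18, -0.40 for Tspan2 and -0.08 for Tspan7. None was called for the difference between the media. A pair of well-expressed genes with tight replicates, also named afterwards, were Mlec, a lectin of the endoplasmic reticulum at 505 to 522 CPM in mdx and 331 to 341 CPM in C57 fibroblasts (0.60, adjusted p = 7.3e-06), and Orai1, the pore of store-operated calcium channels, at 23.2 to 25.4 CPM in mdx and 14.2 to 15.6 CPM in C57 fibroblasts (0.72, adjusted p = 0.000224).

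Of 28 tested mitosis genes 28 had a positive log2 change and the median was 0.26, beside 0.00722 for all genes. Of the 28, 1 was called, beside 1.23% of all genes. That gene, Cdk1, the kinase that drives entry into mitosis, was at 56.3, 67.4 and 63.2 CPM in mdx and 35.8, 40.2 and 39.0 CPM in C57 fibroblasts (0.70 ± 0.09, adjusted p = 0.00114). Mki67, a marker of cycling cells, was at 141, 133 and 151 CPM in mdx and 114, 124 and 110 CPM in C57 fibroblasts (0.29, adjusted p = 0.25). Its groups did not overlap. In vehicle medium 5 of the 28 mitosis genes were called, all higher, beside 0.516% of all genes, with a list median of 0.42. None of 30 DNA replication genes was called (median 0.07). Among 24 cell cycle inhibitors and p53 targets, Cdkn2a was lower, at 46.2 to 48.9 CPM in mdx and 54.6 to 64.9 CPM in C57 fibroblasts (-0.33, adjusted p = 0.0445). Pmaip1, the pro-apoptotic p53 target Noxa, was at 9.51, 9.87 and 10.4 CPM in mdx and 22.9, 18.3 and 28.4 CPM in C57 fibroblasts (-1.23 ± 0.13, adjusted p = 0.000131). The other named members of stress and growth lists were Slc7a3, a cationic amino acid transporter (-0.97, adjusted p = 0.0281), and the imprinted gene Rtl1 (-0.93, adjusted p = 0.0336). The call of Cdkn2a ended on leaving out any 1 library but C57 replicate 1 (0.0792 to 0.198), that of Rtl1 on leaving out any but mdx replicate 3 (0.0559 to 0.149), and that of Slc7a3 without C57 replicate 1 or 2 or mdx replicate 2 or 3 (0.0692 to 0.147).

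Called genes also sat together at 2 further loci, picked out round called genes after their values were seen. Of all genes, 1.23% were called. On chromosome 14, Plac9, a small secreted protein, was at 17.1, 8.06 and 17.5 CPM in mdx and 67.5, 62.0 and 68.9 CPM in C57 fibroblasts (log2 change -2.24 ± 0.24, adjusted p = 0.0022). Its neighbour Tmem254 was at 14.7, 16.8 and 19.4 CPM in mdx and 55.9, 49.8 and 54.8 CPM in C57 fibroblasts (-1.66 ± 0.11, adjusted p = 1.14e-06), and Duxbl1, a double homeobox gene, was lower by -2.34. These were 3 of the 4 genes tested within 100 kb of Tmem254. RefSeq lists several genes at this locus under these names (Plac9a and Plac9b, Tmem254a and Tmem254c), so reads may be split among copies and the values are uncertain. In the fit of the 6 libraries alone Plac9 had an adjusted p of 0.061 at a log2 change of -2.25.

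On chromosome 13, 6 of 28 tested genes within 400 kb of Zfp874a were called, in a cluster of similar zinc finger genes whose reads may also be shared. Zfp874a was at 3.24, 2.51 and 2.17 CPM in mdx and 9.89, 10.6 and 9.32 CPM in C57 fibroblasts (log2 change -1.92 ± 0.16, adjusted p = 7.3e-06). Of the others, Zfp738 was lower (-0.63), whereas Zfp729a (0.73), Zfp85 (1.01) and the non-coding F630042J09Rik (3.79) and Gm49064 (1.46) were higher in mdx. By chromosome, 13 had the largest share of called genes, 19 of 640 (2.97%), followed by 18 with 12 of 471 (2.55%) and 8 with 21 of 909 (2.31%). Chromosome 11 had the smallest among chromosomes with at least 1 call, 5 of 1269 (0.394%).

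Of 54 gene lists, 22 had a called member and 32 had none, while 22 had one without mdx replicate 2 and 36 without the libraries with Y-linked reads. Inflammatory genes were among these: 0 of 23 chemokines and cytokines (median -0.10), 0 of 27 interferon-stimulated genes (0.03) and 0 of 15 antigen presentation genes (0.20) were called. An antigen presentation gene was called, higher, without mdx replicate 2, and Tnfrsf11b of the cytokine list, lower (-0.75), without the libraries with Y-linked reads. Osteopontin (Spp1), a cytokine of injured muscle, was at 4452, 7266 and 5071 CPM in mdx and 4886, 4419 and 3849 CPM in C57 fibroblasts, with overlapping groups (log2 change 0.35, adjusted p = 0.525). Nor were 12 corticosteroid receptors and steroid-handling genes called (median 0.01). Nr3c1 had a log2 change of 0.00 and Nr3c2 of 0.01, with Nr3c2 at 2.00 to 3.23 CPM in mdx and 2.29 to 3.44 CPM in C57 fibroblasts. Of 27 corticosteroid targets 1 was called, Angptl4, beside 1.23% of all genes, and the median was 0.05. Fkbp5, a sensitive target, averaged 21.9 ± 1.4 CPM in mdx and 21.7 ± 2.4 CPM in C57 fibroblasts (adjusted p = 0.961).

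The same genotype comparison in vehicle medium, in separate libraries, called 184 genes (1.1%), 86 higher (0.516%) and 98 lower (0.588%). It was 93, 107 and 117 without mdx vehicle replicate 2, C57 vehicle replicate 2 and mdx vehicle replicate 3. The 2 sets shared 115 genes, 56.1% of the aldosterone set and 62.5% of the vehicle set, all in the same direction. All 205 genes called with aldosterone medium had the same sign in vehicle medium, against 66.6% of all genes. The labels give the libraries of both media the same numbers. Same-numbered libraries correlated in their deviations from the group means, at 0.248, 0.371 and 0.194 in mdx and 0.0646, 0.196 and 0.188 in C57 cultures. Those of unlike number correlated at -0.285 to 0.0716 in mdx and -0.278 to 0.144 in C57 cultures. The value of 0.144 joined C57 aldosterone replicate 1 with C57 vehicle replicate 3, above the 0.0646 with its own number. The 2 media are thus not taken as independent samples of the lines. Without the libraries with Y-linked reads the 2 sets held 226 and 154 genes (52 higher and 102 lower in vehicle medium) and shared 110, of which 109 had the same direction; C57 vehicle medium then had 1 library, assumed to vary like the others. Irx5, for example, was at 17.6, 17.2 and 20.7 CPM in mdx and 4.09, 4.19 and 4.01 CPM in C57 fibroblasts in vehicle medium (log2 change 2.17, adjusted p = 3.34e-08), and Esm1 at 0.406, 0.161 and 0.489 CPM in mdx and 42.0, 48.2 and 59.1 CPM in C57 fibroblasts (-7.31, adjusted p = 2.05e-06). For both the values in the 2 media were close.

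**Figure D5:**
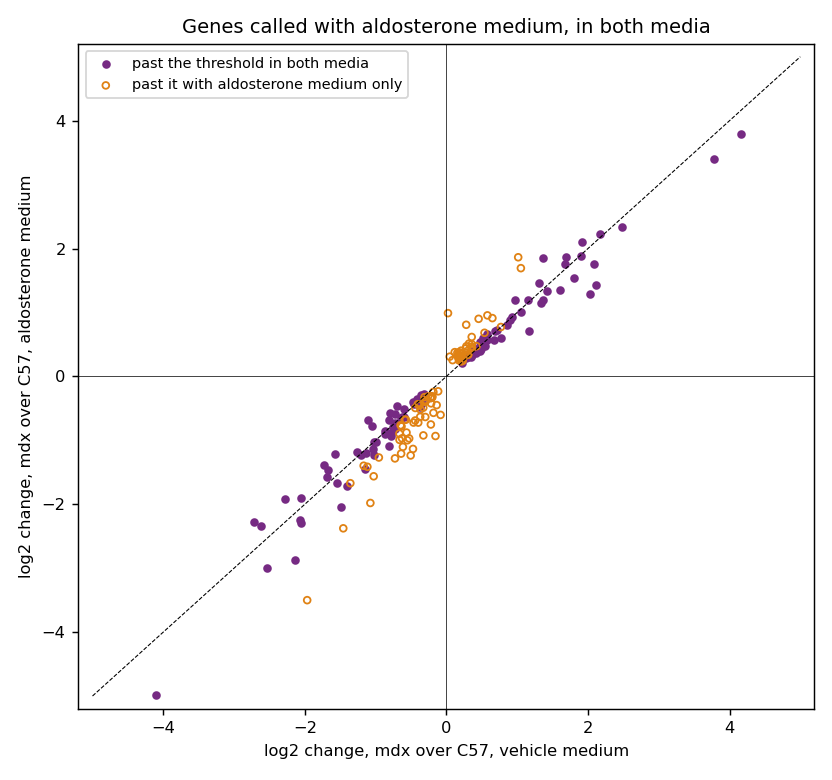
Log2 change of mdx over C57 fibroblasts in aldosterone medium (vertical) against vehicle medium (horizontal) for the genes called with aldosterone medium; filled points were called in both media and open points with aldosterone medium only. All points lie in the lower left or upper right quadrant, and 9 genes beyond 5 on the log2 scale are not drawn.

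Whether the genotype gap itself differed between the media was tested as an interaction. No gene was called by edgeR's quasi-likelihood test or by DESeq2, and 391 of 16671 had an unadjusted p below 0.05 by edgeR and 305 by DESeq2. Of the 90 genes called with aldosterone medium only, 77 had an unadjusted p below 0.05 in vehicle medium and 12 had one for the difference, the lowest being 0.00189 for Scara3. Scara3, a scavenger receptor, was at 134, 125 and 131 CPM in mdx and 105, 107 and 101 CPM in C57 fibroblasts in aldosterone medium, and at 114, 119 and 110 CPM in mdx and 112, 111 and 110 CPM in C57 fibroblasts in vehicle medium. Bmpr1b had a log2 change of -0.75 in aldosterone medium and -0.22 in vehicle medium (unadjusted p = 0.00373 for the difference), and Cdk1 of 0.70 and 1.17 (unadjusted p = 0.00357). Aloxe3 had the smallest p of all (0.000871) at under 1 CPM in every library. Without the libraries with Y-linked reads Gm12411 had a log2 difference of -4.50, but C57 vehicle medium then had 1 library. That library had 70 counts of Gm12411, whereas the left-out C57 vehicle replicates 1 and 3 had 226 and 106. In aldosterone medium the left-out C57 replicate 1 had 149 counts, and C57 replicates 2 and 3 had 249 and 400.

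Part of the genotype difference was shared with the myotubes that conditioned the medium. Aldosterone-treated mdx and C57 myotubes differed in 49 of 15763 genes (0.311%), 19 higher (0.121%) and 30 lower (0.19%) in mdx. The count was 37 without mdx myotube replicate 1 and 12 to 25 without each of the other 5 libraries. The balance turned by DESeq2 (278 higher and 181 lower) and with the replicate block (229 higher and 168 lower), and without the libraries with Y-linked reads it was 15 higher and 88 lower. Of these, 22 were also called in fibroblasts, 44.9% of the myotube set and 10.7% of the fibroblast set, all in the same direction. Of the 189 fibroblast genes that could be tested in myotubes, 124 had the same direction there, against 51.5% of all genes. Among the shared genes, Tlr4, Esm1, Dmd, Zfp874a, Glrx and Rab6b were called in myotubes under all 12 alternatives. Glipr2 was called there under 9, Tmem254 under 8, Zfp811 under 7, Cd59a under 5 and Irx5 under 4 of the 12, and the call of Irx5 (log2 change 1.20, adjusted p = 0.0426) ended on leaving out any 1 of the 6 libraries. Glrx, for one, had log2 changes of 1.19 in fibroblasts and 1.30 in myotubes, and Rab6b of -1.39 and -1.87. Irx3 had a log2 change of 1.34 in myotubes and was not called there (adjusted p = 0.0701).

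The gap between the lines differed between fibroblasts and myotubes for 46 of 17864 genes (0.258%), tested across the cell types in a single fit. Six2 was higher in mdx fibroblasts (log2 change 0.90) and had -0.68 in myotubes (adjusted p = 0.0127 for the difference). Hoxc5 had -0.92 in fibroblasts and 0.80 in myotubes (adjusted p = 0.0103), Inhba -0.42 and 0.96 (adjusted p = 0.0318), and Sema3a -0.44 and 0.39 (adjusted p = 0.0154). Pmaip1 was lower in mdx fibroblasts by -1.23, against 0.16 in myotubes (adjusted p = 0.00497). For Tspan15 the log2 changes were 1.14 in fibroblasts and -0.58 in myotubes, and for Lama2 they were -0.93 and -0.12. The count of 46 fell to 6 without C57 fibroblast replicate 1 and was 8 without mdx fibroblast replicate 3. It was 10 without C57 myotube replicate 2, 191 without mdx myotube replicate 3 and 181 without mdx myotube replicate 1, and 15 to 64 without each of the other libraries. Without the libraries with Y-linked reads it was 21, of which 4 were among the 46, so these differences rest on few libraries.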

How the data were processed

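Per the submitters' processing notes, featureCounts 1.5.0-p3 and build mm39 lie behind the deposited gene counts. Neither aligner nor annotation release is given in these sources. Per the labels' protocols, libraries were poly(A)-selected and not directional. The deposited FPKM values equal counts divided by gene length times 1 constant per library and are used only for levels per length. All columns matched a sample (0 left over). Counts were fitted in R 4.3.3 with edgeR 4.0.16: default low-count filter, TMM scaling and the robust quasi-likelihood test, in 1 fit of 12 fibroblast libraries, 1 of 12 myotube libraries and 1 of all 24, with Benjamini-Hochberg adjustment over all genes tested. The SE is the log2 change divided by the root of F. DESeq2 1.42.0 served as an alternative, and the pipeline was tested on simulated data.

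The members and the 54 gene lists were chosen with earlier results of these data known. Genes are named by rule: the 12 called protein-coding genes that rose most and the 12 that fell most (no overlap, and a group mean of 5 CPM or more), up to 4 called members per list, the 10 genes with the smallest p for each difference of gaps, the 4 leading non-coding genes and a fixed set. Other genes were chosen after their values were seen. Floors (3 counts per library) cover counting error only, whereas the SE and SD values include the spread between libraries. Some genes are not reported here.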

Additional observations from a re-analysis of the deposited data

Results flagged for a closer look

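The 14 genes below had an mdx-C57 gap in fibroblasts that differed from the gap in aldosterone-treated myotubes, by the test of the difference (edgeR's quasi-likelihood test, adjusted over all genes). The log2 gap in fibroblasts minus that in myotubes was 2.04 for Dusp27, 2.00 for AW551984, 1.71 for Tspan15, 1.57 for Six2, 1.48 for Cspg4b, 0.93 for Retreg1 and 0.83 for Gm46620. It was -2.11 for Chsy3, -1.78 for Pcdhga9, -1.73 for Hoxc5, -1.40 for Pmaip1, -1.39 for Inhba, -0.84 for Sema3a and -0.82 for Lama2. For Chsy3, Pcdhga9 and Cspg4b the gap lay mainly in myotubes, with 1.65, 1.46 and -1.31 there and -0.46, -0.31 and 0.18 in fibroblasts. Without the libraries that held Y-linked reads 2 of the 14 were still called and 12 were not.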

How the results depend on the processing

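The count of 205 called genes stayed within 1.5 times under RLE scaling (204), the replicate block with number as a covariate (216), the fit of the 6 libraries alone (191), the Xist level as a covariate (275) and without the libraries with Y-linked reads (226), the last 2 chosen after the data were seen. It was 452 without a filter on low counts and 544 by DESeq2, and 89 to 170 with each library left out in turn. The vehicle count of 184 was 436 without a filter, 475 by DESeq2 and 93 to 249 with a library left out. The myotube count of 49 was 163 without a filter, 459 by DESeq2, 397 with the replicate block, 23 from its 6 libraries alone, 103 without the libraries with Y-linked reads and 12 to 37 with a library left out. The count of 46 between the cell types was 77 without a filter, 377 by DESeq2, 87 with the block, 21 without the libraries with Y-linked reads and 6 to 191 with a library left out. The difference between the media stayed at 0 under every planned setting. It no longer stayed at 0 without the libraries with Y-linked reads, which left 1 library for C57 vehicle medium. The cause of these shifts was not tested.

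Same-numbered mdx and C57 cultures correlated at -0.0545, 0.0484 and 0.183 in their deviations, and those of unlike number at -0.128 to 0.0736. Whether equal numbers mark a shared batch was not tested. Apart from the myotube count and the count between the cell types, a block changed no count by over 1.5 times. Of the 55 named genes called, 28 were called under all 13 alternatives. The log2 changes that changed sign belonged to genes called under no setting. With 1 library left out in turn, Pdgfra ranged from -0.0014 to 0.13, Col3a1 from -0.18 to 0.040, Tgfb1 from -0.089 to 0.25, Nr3c1 from -0.054 to 0.10 and Nr3c2 from -0.13 to 0.20. Tgfb1 was at -0.053 and Nr3c2 at -0.19 without the libraries with Y-linked reads. Nr3c1 was at -0.0015 from 6 libraries. Nr3c2 was at -0.019 with the block and -0.16 with the Xist covariate, where Xist itself was at 0.012.

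With 3 libraries per group, a gene that missed the threshold is not shown to be equal in both lines.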

Other observations

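Receptor, hormone and detoxification genes not described above were also among the called genes, and were picked out after their values were seen. Socs2, a brake on growth hormone signalling, was at 5.42, 6.39 and 4.26 CPM in mdx and 10.4, 9.84 and 9.88 CPM in C57 fibroblasts (log2 change -0.89, adjusted p = 0.00954). The adrenergic receptor Adra2a (-1.14, adjusted p = 0.00131) and the adenylyl cyclase Adcy2 (-1.03, adjusted p = 2.5e-05), both of the cyclic AMP pathway, were lower in mdx in all 3 libraries. Dio2, which activates thyroid hormone, was at 1.19 to 1.38 CPM in mdx and 2.66 to 3.43 CPM in C57 fibroblasts (-1.18, adjusted p = 0.00725). The glutathione transferases Mgst1 and Mgst3 were higher by 0.47 and 0.68 on the log2 scale (adjusted p = 0.0195 and 0.0222).

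A pair of muscle genes present at low level, also chosen after their values were seen, were called in opposite directions. Myom1, of the sarcomere M-band, was at 8.49, 10.3 and 7.97 CPM in mdx and 18.5, 21.1 and 23.6 CPM in C57 fibroblasts (log2 change -1.23, adjusted p = 0.00987). Cav3, the muscle caveolin, was at 4.22, 4.05 and 4.39 CPM in mdx and 2.38, 2.13 and 2.29 CPM in C57 fibroblasts (0.89, adjusted p = 0.0202).

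Metabolic and housekeeping genes with tight replicates included the ferrochelatase gene Fech at 59.7 to 62.2 CPM in mdx and 84.6 to 89.2 CPM in C57 fibroblasts (log2 change -0.50, adjusted p = 0.000117), Tmem70, an assembly factor of ATP synthase (-0.72, adjusted p = 7.84e-05), Mri1 of the methionine salvage pathway (-0.68, adjusted p = 0.000101) and the lysosomal enzyme Aga (0.50, adjusted p = 0.000158). All 4 were called in the same direction in vehicle medium.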
